A study of Mus musculus with 4 samples.

Results

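The mouse Serpina3 genes lie side by side on chromosome 12 and encode secreted or cytosolic serine protease inhibitors (serpins). Of 8 listed genes (Serpina3c, f, g, h, i, k, m and n), 7 were matched to the array, by 9 of its 56605 probes. Serpina3g is not analysed here: no probe carried an accession that the RefSeq table used lists for it, and a probe under an older accession would have stayed among the unnamed ones. A probe was counted when the RefSeq accession given for it in the scanner output belonged to a listed gene, and every probe was read on its own, since the genes are close in sequence. The genes were chosen with the difference between the treatment groups known, so their values are given as a description, without p-values, and a count of them past a test's threshold is printed only beside the share of all probes.

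A serpin offers its target protease a reactive loop as bait, and when the loop is cut the inhibitor folds around the protease and locks it in an inactive complex. Humans have a single SERPINA3 gene, which encodes the acute-phase protein alpha-1-antichymotrypsin, whereas in the mouse the gene has been duplicated into a cluster whose members differ mainly in the loop and therefore in their targets. In the liver several of these genes are expressed by hepatocytes and are known as targets of interleukin 6, STAT3 and glucocorticoid signalling, and some are induced in activated immune cells.

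Kupffer cells, macrophages that reside in the liver sinusoids, were isolated by collagenase perfusion and a Percoll gradient from male C57BL/6 mice at 8 weeks of age and kept as primary cultures. The MaR1 group was given 200 nM maresin 1, a lipid mediator derived from docosahexaenoic acid and known for promoting the resolution of inflammation, and the Veh group was given its solvent, ethanol. Both groups were treated for 24 h in medium with 0.1% serum, and each has 2 samples, each measured on 1 array in 1 colour. Nothing in the labels tells whether a group's samples were separate cultures, so each p-value reflects the spread among these samples alone, which may be technical.

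Of the 56605 probes, 54.4% to 55.6% were well above background on each array, and 31110 were tested. Signals are given relative to the 75th percentile of each array, which lay between 847 and 988 units of processed signal. All 14 Kupffer cell markers were measured, and their summed relative signal was 1374 to 1424 on the Veh arrays and 1363 to 1380 on the MaR1 arrays. The lectin gene Clec4f, a defining marker of these cells, was at 81.2 and 86.4 times the 75th percentile with vehicle and at 84.0 and 88.2 times with maresin 1. Adgre1, another marker of the list, read 45.7 and 44.5 with vehicle and 27.7 and 29.0 with maresin 1. In the limma test given below, Adgre1 was the 1 marker of the 14 that fell. In the same test 2 rose and 11, Clec4f among them, did not pass. The cultures held transcripts of other liver cells too, so fewer cells of a type and less RNA per cell cannot be told apart. Having 4 arrays limits the precision of what follows.

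Promoter windows from RefSeq (build GRCm38.p6, 250 bases before to 50 after the annotated start) were found for 5 of the 8 listed genes: Serpina3c, f, g, i and n. Stretches of them are shown because they hold short sequences that recur in front of these genes. The capitals mark TTCNNNGAA, the palindromic core to which STAT factors bind, and CAGAGCACAGCTT and CATTTCCTAAGA, the words of at least 12 bases that all windows of these 5 genes share; these words were found by comparing the windows themselves.

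Serpina3c: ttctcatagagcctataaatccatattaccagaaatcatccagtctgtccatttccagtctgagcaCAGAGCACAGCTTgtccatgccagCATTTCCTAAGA
Serpina3n: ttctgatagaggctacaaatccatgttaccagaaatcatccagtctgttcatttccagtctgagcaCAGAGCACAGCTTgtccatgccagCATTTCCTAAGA
Serpina3f: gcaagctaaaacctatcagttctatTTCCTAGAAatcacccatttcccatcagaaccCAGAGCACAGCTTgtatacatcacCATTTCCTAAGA
Serpina3i: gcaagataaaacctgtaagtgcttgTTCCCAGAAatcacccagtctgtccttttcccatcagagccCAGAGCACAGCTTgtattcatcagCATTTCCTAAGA
Serpina3g: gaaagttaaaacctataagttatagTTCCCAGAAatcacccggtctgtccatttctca

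The stretches lie at chr12:104153916-104154017 (minus strand, Serpina3c), chr12:104406560-104406661 (Serpina3n), chr12:104214398-104214490 (Serpina3f), chr12:104262995-104263096 (Serpina3i) and chr12:104236089-104236146 (Serpina3g), those after Serpina3c on the plus strand. That of Serpina3g ends just before its annotated start, and both shared words follow after it. Over the first 38 bases shown, Serpina3c and Serpina3n were identical at 34, Serpina3f, g and i were identical to each other at 31 or 32, and members of the first pair matched those of the trio at 21 to 25. On both strands of the whole windows, TTCNNNGAA was found for 3 of the 5 genes (Serpina3f, g and i) and in 8.3% of all 32851 promoter windows of the same length. CAGAGCACAGCTT was found in 0.0213% of all windows and CATTTCCTAAGA in 0.0365%, the window of Serpina3b, a neighbour outside the list, among the latter. The spacing variant TTCNNNNGAA, in 6.95% of all windows, was found among the 5 for Serpina3i alone, where it overlaps CATTTCCTAAGA. The nuclear receptor half-site AGGTCA, in 16.3% of all windows, was found for none of them.

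Across the listed genes the signal was higher with maresin 1 at 8 of the 9 probes, with no overlap between the groups, and the remaining probe, that of Serpina3k, overlapped. Among all probes tested, 33.2% had both MaR1 arrays above both Veh arrays. The median log2 difference (MaR1 minus Veh) was 1.91 over the 9 probes, with a range from -0.06 to 3.47, and -0.01 over all probes tested. In limma's moderated test over all probes, with Benjamini-Hochberg adjustment, 8 of the 9 were past the threshold as higher and 0 as lower, where 11.6% of all probes were higher and 12.4% lower. Since the genes were chosen on this difference, nothing is read from these counts. All 9 probes were well above background on every array, and each consisted of 1 spot.

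**Figure D1:**
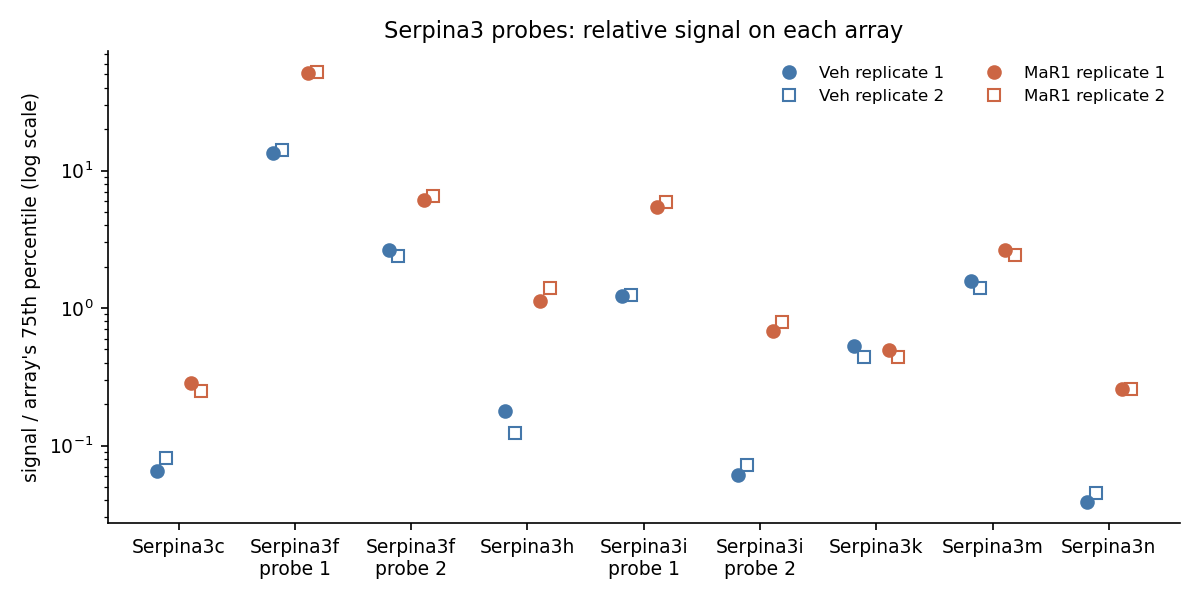
Relative signal (multiples of the array's 75th percentile, log axis) of each Serpina3 probe on the 4 arrays, Veh in blue and MaR1 in orange, filled circles for replicate 1 and open squares for replicate 2. The MaR1 points lie above the Veh points at 8 probes and overlap them at Serpina3k; heights of different probes cannot be compared, since each probe has its own response.

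Serpina3i, a protein-coding member next to Serpina3h, had the largest difference at one of its probes, though with normexp background correction Serpina3h came out above it (2.56 against 2.52 on the log2 scale). At that probe (probe 2) the relative signal was 0.0606 and 0.0718 on the Veh arrays and 0.683 and 0.785 on the MaR1 arrays, which is 11.1-fold or 3.47 ± 0.12 on the log2 scale. Every difference is given this way, with the standard error (SE) from limma and n = 2 in each group. Its other probe (probe 1) read 1.21 and 1.24 with vehicle and 5.47 and 5.87 with maresin 1, a log2 difference of 2.21 ± 0.06, or 4.62-fold. Both probes separated the groups by a gap far wider than the spread within a group, but their differences were 1.27 apart on the log2 scale, with the brighter probe showing the smaller one. Among all 31110 probes, that of probe 2 ranked 12 from the top and that of probe 1 ranked 113.

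Serpina3f encodes a serpin close to Serpina3g, the cytosolic inhibitor of cathepsins that could not be matched through the table used. Its probe 1 was bright, at 13.5 and 14.0 times the 75th percentile with vehicle and 51.4 and 51.9 with maresin 1, a log2 difference of 1.91 ± 0.06, or 3.75-fold. Probe 2 read 2.64 and 2.41 with vehicle and 6.14 and 6.48 with maresin 1, a log2 difference of 1.32 ± 0.08, or 2.50-fold. Here the brighter probe had the larger difference, by 0.58 on the log2 scale.

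Serpina3h is annotated by RefSeq as a transcribed pseudogene. Its probe read 0.177 and 0.124 with vehicle and 1.12 and 1.41 with maresin 1. The log2 difference of 3.08 ± 0.21, or 8.46-fold, ranked 32 among all probes, and its SE was the largest of the 9 because the arrays within each group lay further apart. The scanner files give no probe sequences, so how far a probe for one of these close genes also picks up the transcripts of another was not tested.

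Serpina3n, a secreted inhibitor known to block granzyme B, read 0.0390 and 0.0452 with vehicle and 0.256 and 0.257 with maresin 1, a log2 difference of 2.61 ± 0.09, or 6.11-fold. Both Veh signals were dim: in processed signal they were 37.5 and 44.6, where the lowest value well above background on those arrays was 20.6 and 20.5. Serpina3c, also called Klkbp in RefSeq, was likewise dim with vehicle, at 0.0655 and 0.0806, and read 0.285 and 0.248 with maresin 1, a log2 difference of 1.87 ± 0.13, or 3.65-fold. For these dim probes the size depended on the processing. With normexp and quantile normalization the log2 difference was 1.59 for Serpina3n, 1.20 for Serpina3c and 2.52 for probe 2 of Serpina3i. The MaR1 arrays were still higher. In that setting an offset of 50 is added to each signal, which by itself lowers the fold of dim probes.

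The listed genes with the smallest differences, Serpina3k and Serpina3m, lie between Serpina3j and Serpina3n in the cluster. Serpina3m read 1.58 and 1.41 with vehicle and 2.64 and 2.43 with maresin 1, a log2 difference of 0.77 ± 0.09, or 1.70-fold. Serpina3k, also named contrapsin in RefSeq and abundant in hepatocytes, read 0.531 and 0.444 with vehicle and 0.497 and 0.437 with maresin 1, a log2 difference of -0.06 ± 0.12, and here the arrays of the groups interleaved. Without Veh replicate 1 its value was 0.07 and without Veh replicate 2 it was -0.19, so no direction can be given. Of the 8 probes past the threshold, that of Serpina3m was the one that no longer passed when dim probes were kept in the test.

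Ordered by log2 difference, the probes ran from probe 2 of Serpina3i through Serpina3h, Serpina3n, probe 1 of Serpina3i, probe 1 of Serpina3f, Serpina3c, probe 2 of Serpina3f and Serpina3m to Serpina3k. Of the neighbours in this order, probe 1 of Serpina3f and Serpina3c had overlapping SE ranges, and no other pair of neighbours did. The order depended on the processing. With normexp, Serpina3h (2.56) led probe 2 of Serpina3i (2.52). Serpina3n (1.59) came after probe 1 of Serpina3i (2.09) and probe 1 of Serpina3f (1.79), and Serpina3c (1.20) came after probe 2 of Serpina3f (1.26). At least 2-fold higher signal was found at 7 of the 9 probes and at 2.23% of all probes with no overlap, and at least 4-fold at 4 of the 9 and at 0.485% of all.

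**Figure D2:**
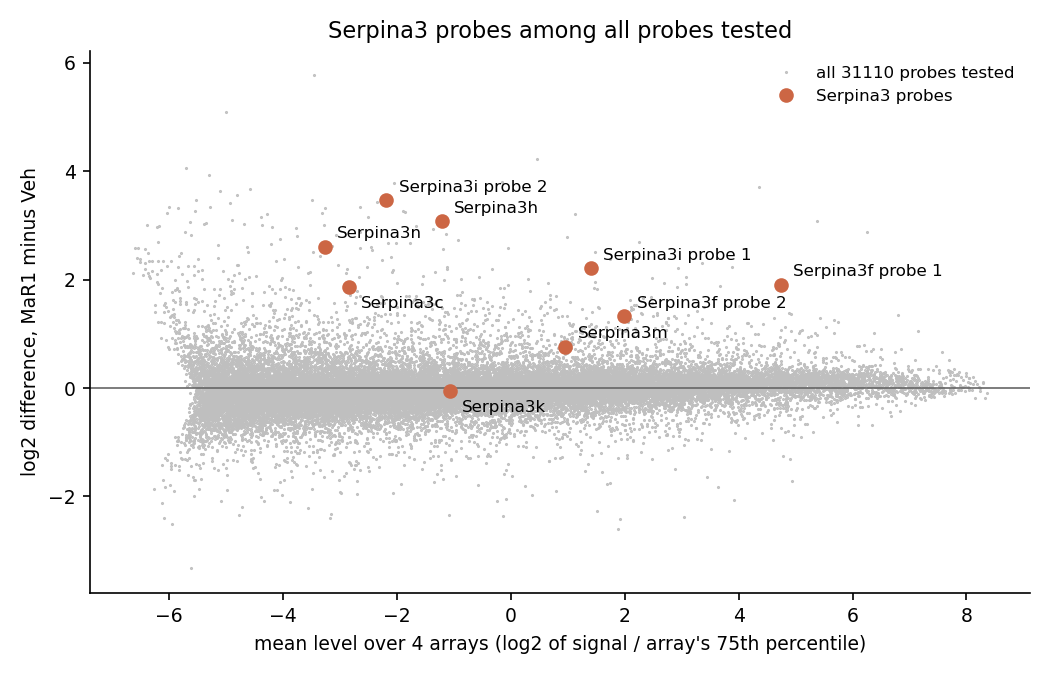
Log2 difference (MaR1 minus Veh) against the mean level over the 4 arrays (log2 of signal relative to the array's 75th percentile) for all 31110 probes tested (grey) and the Serpina3 probes (orange). The Serpina3 probes lie between -0.06 and 3.47 and are spread over a wide range of mean levels.

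**Figure D3:**
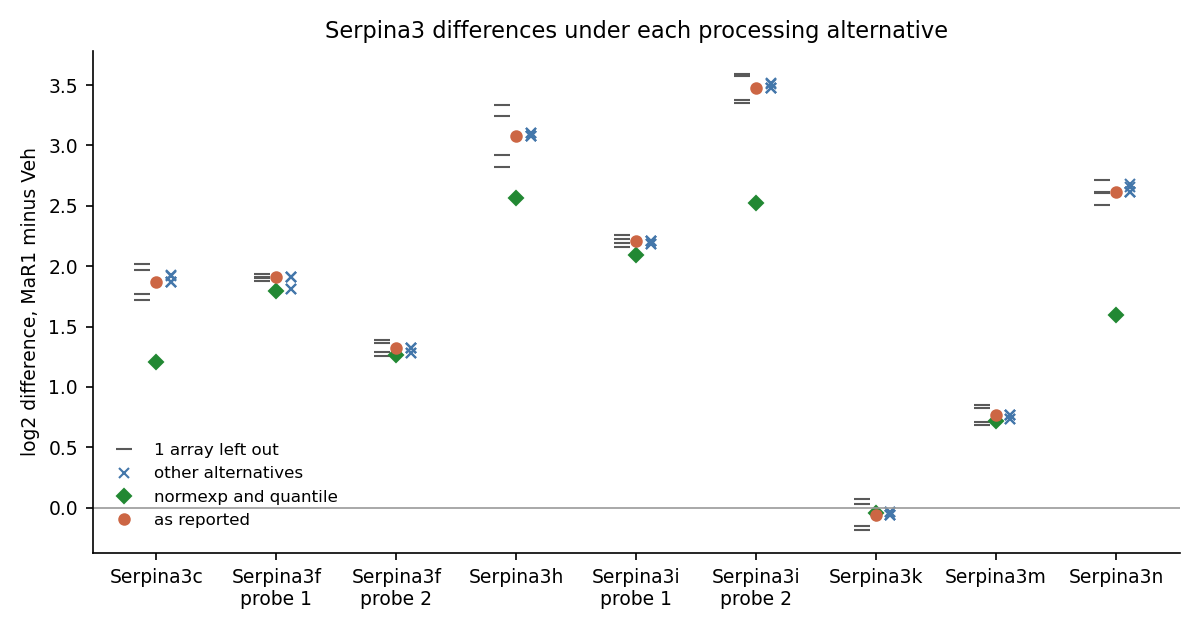
Log2 difference (MaR1 minus Veh) of each Serpina3 probe as reported (orange), with normexp and quantile normalization (green), under the other alternatives (blue crosses) and with 1 array left out (grey dashes). The dim probes of Serpina3c, Serpina3n and probe 2 of Serpina3i have their lowest values, 1.20, 1.59 and 2.52, with normexp. So do Serpina3h (2.56), probe 1 of Serpina3f (1.79) and probe 1 of Serpina3i (2.09).

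The differences of the 2 promoter groups interleaved. Serpina3f and Serpina3i, whose windows hold TTCNNNGAA, had log2 differences of 1.32 to 3.47, and Serpina3c and Serpina3n, whose windows hold none, had 1.87 and 2.61. With 4 such genes measured this is a description of these windows only.

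Genes of the same family that were not on the list were compared next, since they share the locus. Of 3 further Serpina3 genes on the array, those with a kept probe, Serpina3b and Serpina3j, rose. Serpina3b read 0.0670 and 0.0681 with vehicle and 0.186 and 0.216 with maresin 1 (1.57 ± 0.09, adjusted p = 0.00317), a difference that was 1.01 with normexp. Serpina3j read 0.0550 and 0.0413 with vehicle and 0.0997 and 0.0934 with maresin 1 (1.02 ± 0.15, adjusted p = 0.0189), and its call was lost without either MaR1 array (adjusted p up to 0.0768) and with no filter on dim probes, and its difference was 0.50 with normexp. None of the probes of Serpina3a was well above background on both arrays of a group. Serpina5, which encodes the inhibitor of activated protein C and lies beside Serpina3a, rose from 0.0566 and 0.0916 to 0.253 and 0.293 (1.92 ± 0.25, adjusted p = 0.0142), a call also lost without either MaR1 array (up to 0.0689) and with no filter.

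The alpha-1-antitrypsin genes, on the far side of Serpina5 in the cluster, did not pass as processed here, but some did under other settings. All 7 probes of Serpina1a, b, c, d and e were lower on both MaR1 arrays than on both Veh arrays, where 36.4% of all probes were, with log2 differences between -0.24 and -0.10 and adjusted p between 0.0785 and 0.296. With normexp Serpina1a, b and c passed as lower (adjusted p = 0.0207, 0.0263 and 0.0214), as did Serpina1a and c in the authors' value table (0.0449 and 0.0455) and Serpina1a, b, c and e with a variance trend (0.00769, 0.00502, 0.00772 and 0.0263). Serpina6, which encodes corticosteroid-binding globulin, was at -0.07 ± 0.12 (adjusted p = 0.700) and Serpina11 at 0.14 ± 0.16 (adjusted p = 0.560). Serpina9 was not well above background on either Veh array and was at least 1.1-fold higher with maresin 1 (adjusted p = 0.0644). Of the 11 clade A serpins measured outside the list, 3 rose and 0 fell, and the median of the 11 was -0.07. Over the 14488 named genes measured, each at its brightest probe, 13% rose and 12.1% fell, and the counts of the gene lists that follow are to be read against these shares. Of the genes flanking the cluster (5 on each side, added after values were seen), 7 had kept probes, 12 in all. At 11 of these probes the difference did not pass, and that of Ifi27l2b fell (-0.70 ± 0.12, adjusted p = 0.0222). The Ifi27l2b probe was dim, with processed signals of 26.6 and 19.4 on the MaR1 arrays. The lowest values well above background on those arrays were 17.6 and 16.0.

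**Figure D4:**
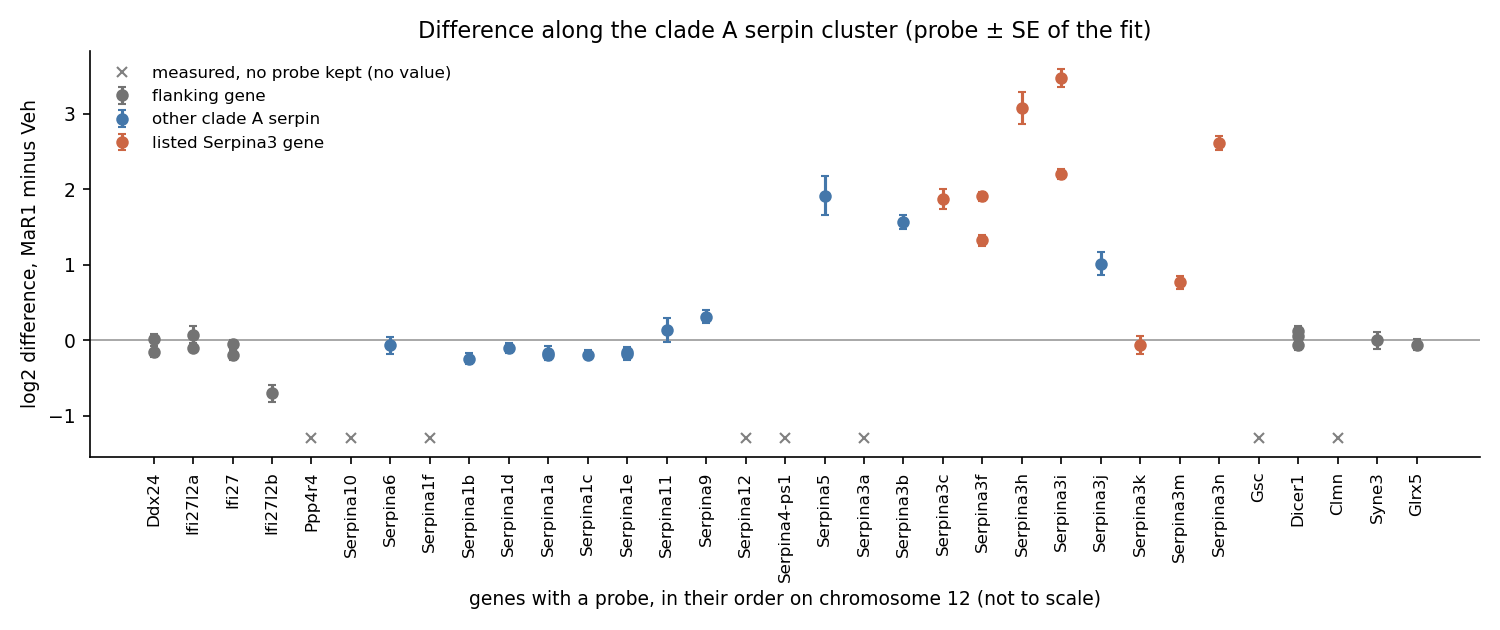
Log2 difference (MaR1 minus Veh, probe value with the SE of the fit) of every kept probe of the clade A serpins and 5 protein-coding genes on each side, in RefSeq gene order on chromosome 12, not to scale. Crosses mark genes with no kept probe and have no value, and the point of Serpina9 rests on Veh signals below detection. The listed genes other than Serpina3k lie between 0.77 and 3.47, the Serpina1 genes between -0.24 and -0.10.

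Hepatocytes are the main source of Serpina1 proteins and of Serpina3k, and their transcripts were present in the cultures. Of 18 hepatocyte markers 16 were measured, with Apob and Cps1 not kept. Their summed relative signal was 36.4 and 38.5 on the Veh arrays and 32.1 and 32.4 on the MaR1 arrays, 0 rose, 4 fell (Hnf4a, Apoc3, Ttr and Rbp4) and 12 did not pass, and their median log2 difference was -0.29. Of these 4 calls only that of Hnf4a held whichever array was left out. Ttr and Rbp4 lost theirs without each of the 4 arrays, and Apoc3 without any but Veh replicate 2 (adjusted p up to 0.0984). The other kept probes of Apoc3 were at -0.39 ± 0.07 and 0.13 ± 0.05. Alb, the albumin gene, was at 9.85 and 9.03 with vehicle and 7.61 and 8.47 with maresin 1 (-0.23 ± 0.09, adjusted p = 0.124). The part of hepatocyte RNA in the values of Serpina3k, Serpina3m and the Serpina1 genes was not tested.

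Among markers of other cell types, those of dendritic cells had the highest share of genes that rose. Of 9 measured dendritic cell markers 7 rose and 0 fell, and their summed signal was 47.6 to 51.0 on the Veh arrays and 75.4 to 76.3 on the MaR1 arrays; the largest difference was that of Itgax (2.39 ± 0.08, adjusted p = 0.00148), an integrin gene that activated macrophages express too. Of 7 B cell markers 3 rose (summed signal 7.22 to 7.36 and 9.24 to 9.48), of 11 endothelial markers 4 rose and 1 fell (145 to 152 and 163 to 166), and of 10 T and NK cell markers 1 rose and 5 fell (18.3 to 18.8 and 14.8 to 14.9). Of 9 stellate cell markers 2 fell (40.9 to 41.1 and 38.1 to 39.1), of 8 neutrophil markers 1 fell (45.4 to 46.9 and 40.4 to 44.2), and of the 14 Kupffer cell markers 2 rose and 1 fell. The counts for neutrophils and Kupffer cells lie near the shares over all named genes. Leaving out each array in turn, 4 of the 7 dendritic, 2 of the 3 B cell and 2 of the 4 endothelial calls as higher passed every time, as did the 1 endothelial, 1 neutrophil and 1 Kupffer cell call as lower and the 1 T and NK cell call as higher. None of the 5 T and NK cell and 2 stellate calls as lower, or of the 2 Kupffer cell calls as higher, did so. The part of these cells in the Serpina3 values was not tested.

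Genes of signals known to induce Serpina3 genes changed in both directions. Of 29 measured genes of the interleukin 6, interleukin 1, interferon gamma, STAT and glucocorticoid pathways, 14 rose, 4 fell and 11 did not pass, with a median of 0.25. Il1r1, the receptor for interleukin 1, rose from 0.875 and 0.903 to 2.87 and 2.95 (1.71 ± 0.06, adjusted p = 0.00156). Ifng, the interferon gamma gene, rose by 1.50 ± 0.07 (adjusted p = 0.00223). Il6st, the gp130 chain shared by receptors of the interleukin 6 family, rose from 7.19 and 7.10 to 14.2 and 14.9 (1.02 ± 0.06, adjusted p = 0.00311), and Socs1, a feedback inhibitor of JAK-STAT signalling, rose by 1.33 ± 0.11 (adjusted p = 0.00554). The 4 that fell, named after their values were seen, were Il1b, Tnf, the interferon gamma receptor gene Ifngr1 and the glucocorticoid-induced gene Tsc22d3, with log2 differences from -0.56 to -0.30. The transcripts of the factors Stat3 (0.25 ± 0.06, adjusted p = 0.0590) and Stat6 (-0.19 ± 0.07, adjusted p = 0.119), named likewise, did not pass. Leaving out each array in turn, 7 genes that rose, Il1r1, Ifng, Il6st and Socs1 among them, and 1 that fell passed every time.

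Of 23 measured proteases, 6 rose, 3 fell and 14 did not pass, with a median of 0.09. The number that fell is near the 12.1% of all named genes. The list holds granzymes, cathepsins and other proteases, and not all of its members are known targets of serpins. The tissue kallikrein gene Klk1 rose from 0.169 and 0.219 to 0.548 and 0.534 (1.49 ± 0.14, adjusted p = 0.00701). The granzyme gene Gzma rose by 1.37 ± 0.09 (adjusted p = 0.00404), whereas Gzmc fell from 5.24 and 5.20 to 1.81 and 1.74 (-1.56 ± 0.06, adjusted p = 0.00169). Ctsk, which encodes the collagen-degrading cathepsin K, rose by 1.09 ± 0.06 (adjusted p = 0.00291). Gzmb, the granzyme B gene (0.36 ± 0.06, adjusted p = 0.0220), named for its tie to Serpina3n after its value was seen, did not pass when a single array was left out, whichever it was (up to 0.103), nor with the replicate number as a block. Ctsg, the cathepsin G gene, read 0.0379 and 0.0619 with vehicle and 0.0530 and 0.0620 with maresin 1, with overlapping groups. The calls of Klk1, Gzma, Gzmc and Ctsk held whichever array was left out. T and NK cells also express granzymes, and their markers are given above.

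Most serpins of other clades did not pass: of 20 measured genes 5 rose, 1 fell and 14 did not pass, with a median of 0.16. Serping1, which encodes the complement C1 inhibitor, rose from 0.599 and 0.787 to 1.32 and 1.22 (0.89 ± 0.15, adjusted p = 0.0232), a call lost without either MaR1 array (up to 0.0894). Serpinb2, a serpin gene expressed in activated macrophages, rose by 0.78 ± 0.07 (adjusted p = 0.00622), a call that held whichever array was left out. Serpinb6e fell by 0.55 ± 0.08 on the log2 scale (adjusted p = 0.0195), a call lost without either Veh array or MaR1 replicate 1 (up to 0.0842).

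**Figure D5:**
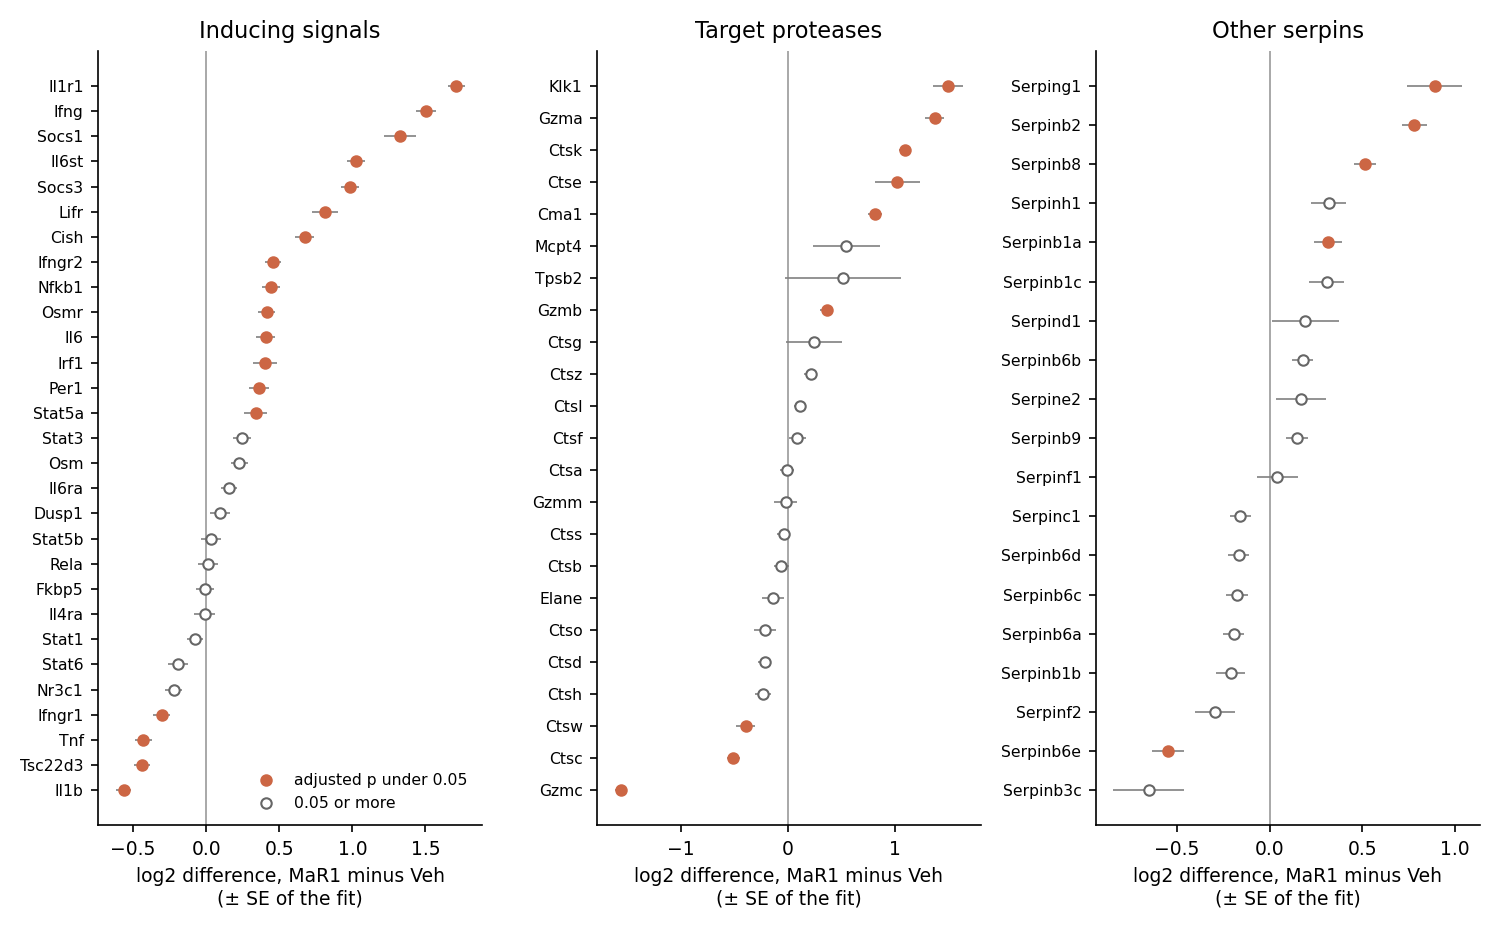
Log2 difference (MaR1 minus Veh, with the SE of the fit) for inducing signals, listed proteases (titled target proteases) and serpins of other clades. Each gene is at its brightest kept probe (1 serpin of the third panel is not shown), and filled points have a limma adjusted p under 0.05. Il1r1 (1.71), Klk1 (1.49) and Serping1 (0.89) head the 3 panels.

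The 3 probes of named genes whose pattern over the 4 arrays was most like that of probe 2 of Serpina3i were those of Ifi202b, Il31ra and Sprr2a2, likeness being the Euclidean distance between log2 levels centred on each probe's mean over the 4 arrays. For Sprr2a2 the distance was 0.127. Ifi202b and Il31ra were not well above background on either Veh array. Their distances, and with them their place among the 3, rest on Veh signals below detection, and the distances are not given. Ifi202b and Il31ra were at least 5.82-fold and at least 5.08-fold higher with maresin 1. These bounds are the MaR1 mean over the Veh mean, with each Veh signal raised to that array's detection limit. That limit is the lowest signal that was well above background. Sprr2a2, which encodes a small proline-rich protein of epithelia, read 0.0462 and 0.0541 with vehicle and 0.469 and 0.554 with maresin 1.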

How the data were processed

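The authors extracted the deposited linear intensity values with Agilent Feature Extraction 11.0.1.1, per the file headers, which subtracts background and spatial trends within an array and does not normalize between arrays. The deposited value table holds log2 values, apparently quantile-normalized by the authors (scale and filter not given in the sources used here), and served as an alternative. All arrays were on 1 slide, so array position and group cannot be told apart.

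Here, log2 of the processed signal minus each array's 75th percentile was used, without control spots and outlier marks. Probes well above background on both arrays of a group, with a value on all 4, were kept (31110). Names came from RefSeq accessions in a GRCm38.p6 table (32994 probes, 58.3%). Each probe was tested with limma 3.58.1 (R 4.3.3, two-sided, Benjamini-Hochberg, threshold 0.05), tested on simulated data. Lists used each gene's brightest kept probe. Named besides the members were all measured clade A serpins and the 3 nearest patterns. Of each list other than those of cell types, up to 4 genes were named. These had the largest difference among those past the threshold without overlap. Cell type markers lie outside this rule, and not all that passed are named. Others are named where the text says so, and Clec4f, Adgre1, Alb and Ctsg were chosen likewise after their values were seen. Of the genes this rule names, 1 is not reported here, though list counts include it. The members and lists were chosen with earlier results of these data known. Same-numbered arrays did not deviate together (r = -0.03). Alternatives were quantile normalization, normexp (offset 50, on the median signal, the mean signal not being used here), the value table, 2 other filters, 1 probe per gene (or per accession where unnamed), a variance trend, a replicate block and leaving out each array. Figures were drawn with matplotlib 3.10.9.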

Additional observations from a re-analysis of the deposited data

How the results depend on the processing

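The count of Serpina3 probes past the threshold was 7 of 9 with no filter on dim probes, where Serpina3m no longer passed. It was 6 of 7 with 1 probe per gene, and it stayed at 8 of 9 in every other alternative. The genes having been chosen on this difference, that supports nothing. Over all probes, 7469 of 31110 (24%) were called in either direction. With no filter on dim probes 2758 of 56587 were called, and with 1 probe per gene 5768 of 24055. Of 31110 probes, 11756 were called with a variance trend, 4973 with a replicate block and 2490 to 3506 with 1 array left out. Quantile normalization gave 7002 of 31110 and normexp 9554 of 31110. The authors' value table gave 7214 of 29710, and probes well above background on all 4 arrays gave 7826 of 29693. Related genes past the threshold, cell type markers not counted, numbered 44 (33 higher, 11 lower), against 22 with no filter, 72 with a variance trend and 20 to 26 with 1 array left out; the split was 35 and 29 with normexp and 32 and 21 in the authors' value table. The labels do not say what a replicate number marks, and with the replicate block the Serpina3 count stayed at 8 and that of related genes was 37. The causes were not tested.

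Log2 differences of the Serpina3 probes with 1 array left out ran from 1.72 to 2.02 (Serpina3c), 1.88 to 1.93 and 1.26 to 1.39 (Serpina3f), 2.83 to 3.34 (Serpina3h), 2.16 to 2.26 and 3.35 to 3.59 (Serpina3i), 0.68 to 0.85 (Serpina3m) and 2.51 to 2.72 (Serpina3n). Signals near background limit the fold of the dimmest probes.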

Other observations

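Among 24 measured acute-phase genes, the class to which human SERPINA3 belongs, 5 rose and 3 fell, where 13% of all named genes rose and 12.1% fell, and the median log2 difference was -0.14. Cebpd, which encodes a transcription factor induced by interleukin 6, rose by 1.02 ± 0.09 on the log2 scale (limma adjusted p = 0.00568), and the complement gene C3 rose by 0.79 ± 0.05 (adjusted p = 0.00416). The ceruloplasmin gene Cp fell by 0.61 ± 0.06 on the log2 scale (adjusted p = 0.00790), and its dimmer probes were at -0.56 ± 0.08 and 0.09 ± 0.35. These 3 calls held whichever array was left out. Steap4, a metalloreductase gene, rose by 0.55 ± 0.09 (adjusted p = 0.0199), a call lost without either Veh array or MaR1 replicate 2 (adjusted p up to 0.0858). The haptoglobin gene Hp (-0.49 ± 0.08, adjusted p = 0.0221) and Saa2 (-0.46 ± 0.07, adjusted p = 0.0206), named after their values were seen, fell. Of 16 measured hepatocyte markers 4 fell and 12 did not pass, and the part of hepatocyte RNA in these values was not tested. Hp lost its call without Veh replicate 1 or either MaR1 array (up to 0.0910), and Saa2 lost its call whichever array was left out (up to 0.0860).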
